A study of Mus musculus with 15 samples.

Results

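Immediate early transcription factors are the products of genes that cells switch on within minutes of a stimulus, without making new protein first. Fos, Fosb, Fosl2, Jun, Junb, Jund, Atf3, Egr1, Klf10 and Myc were chosen by gene symbol as 10 such genes, out of the 8251 genes with a named probe set in the series. The arrays carried 16 probe sets for them, and every probe set annotated with a single one of these symbols was kept. Of the 16, 13 passed the signal filter, at least 1 for each of the 10 genes.

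RNA came from MC3T3 clone 1b, a clonal line of mouse calvarial cells that can become osteoblasts, and was measured on 15 arrays in 5 groups of 3. Cells in control medium were taken at day 0. Cells given beta-glycerol phosphate (GP) with ascorbic acid plus BMP-2, a bone morphogenetic protein, were taken at days 1 and 3 and are called treated. Cells given GP alone were taken at days 1 and 3, so GP was shared by all groups but the first, and no group had ascorbic acid without BMP-2 or the reverse. Each array carried a prep number, 1, 2 or 3, that recurred in every group. The labels leave unsaid whether a prep was its own culture. The p-values therefore rest on differences among preps that could be technical. All cells were of 1 clone and doses were not given in the sources used here.

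Values are linear signal intensities per probe set, already scaled by the depositors so that each array had a trimmed mean of 150.1 units. Of 7 osteoblast lineage markers on the array 6 passed the signal filter: the matrix genes Col1a1, Col1a2, Postn and Sparc lay at 2156 to 11862 units and Cdh11 at 137.2 to 438.9 units, while Alpl, the alkaline phosphatase gene, had a median of 33.4 units (10.2 to 970.9), and the late bone gene Ibsp, with a median of 6.6 units, failed it. Of markers of other cell types, 0 of 6 endothelial, 0 of 4 adipocyte, 1 of 4 chondrocyte, 1 of 5 epithelial, 3 of 5 skeletal muscle, 3 of 5 neural and 3 of 8 macrophage and osteoclast genes passed the filter. The prep 3 arrays stood apart from the others: they lay at -39.7 to -25.3 on the first principal component, against 1.55 to 25.6 for preps 1 and 2, and 12.1% to 14.3% of their values were at the floor of 2.8 units, against 7.29% to 10.1%. The GP day 3 array of prep 3 had an actin 3' to 5' ratio of 2.11, where the other 14 arrays had 1.00 to 1.34.

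Proteins of the Fos and Jun families pair through a leucine zipper to form AP-1, a dimer that binds DNA and passes growth factor and stress signals on to target genes. Jun proteins can pair with themselves, whereas Fos proteins need a Jun partner. Atf3 is a stress-induced relative that pairs with Jun proteins, Egr1 is a zinc finger factor induced through the MAP kinase pathway, Klf10 is a zinc finger factor first described as a TGF-beta-inducible early gene in osteoblasts, and Myc pairs with Max to drive growth genes. AP-1 factors are known regulators of osteoblast growth and bone mass. The transcripts of most of these genes are short-lived, and the first samples after the additions were taken at day 1.

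The promoter windows of Fos, Jun and Junb are shown because these 3 genes had the widest swings among arrays of the AP-1 members. They were taken from RefSeq (build GRCm38.p6) and run from 250 bases before the start of the gene to 50 after it, on the gene's own strand. Windows were used for 7 of the 10 members. Capitals mark every match, on either strand, to 9 motifs: TGACGTCA (the cyclic AMP response element, CRE), its half-site TGACG, the AP-1 site TGANTCA, TGACATCA (a form of AP-1 site), the E-box CACGTG, the CArG box bound by serum response factor, the GC-rich Smad element GGCGCC, the CCAAT box and the TATA box TATAAA. The half-site also lies within the full element.
Fos (chr12:85473640-85473939, plus strand): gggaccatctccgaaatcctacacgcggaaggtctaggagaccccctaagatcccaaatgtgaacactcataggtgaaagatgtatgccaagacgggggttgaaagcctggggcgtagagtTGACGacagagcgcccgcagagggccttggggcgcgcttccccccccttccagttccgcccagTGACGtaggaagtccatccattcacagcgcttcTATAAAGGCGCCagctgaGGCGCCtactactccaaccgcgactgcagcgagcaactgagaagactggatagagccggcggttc
Jun (chr4:95052173-95052472, minus strand): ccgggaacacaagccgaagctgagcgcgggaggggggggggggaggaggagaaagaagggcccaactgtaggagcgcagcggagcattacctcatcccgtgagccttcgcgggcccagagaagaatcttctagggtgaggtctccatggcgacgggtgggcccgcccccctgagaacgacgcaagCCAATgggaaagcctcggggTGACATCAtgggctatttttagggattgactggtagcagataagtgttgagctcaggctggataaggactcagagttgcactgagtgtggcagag
Junb (chr8:84978699-84978998, minus strand): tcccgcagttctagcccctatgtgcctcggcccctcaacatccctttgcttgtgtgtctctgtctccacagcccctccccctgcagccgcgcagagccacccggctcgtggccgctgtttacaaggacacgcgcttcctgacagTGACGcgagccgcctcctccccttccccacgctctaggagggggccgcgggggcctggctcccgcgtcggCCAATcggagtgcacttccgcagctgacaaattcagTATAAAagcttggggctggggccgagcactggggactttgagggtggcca
The Jun window held 1 TGACATCA at -45 to -38 from the start, a match that 3.62% of all 32851 windows in the table held. The Fos window held 2 TGACG half-sites, which 20.8% of windows held, and 2 GGCGCC elements, which 11.9% held. Junb had 1 TGACG half-site, and Fos and Junb each had a TATAAA, as 13.6% of windows did. That of Fos lay at -33 to -28 from the start, and that of Junb lay after the start, at 1 to 6. CCAAT, in the Jun and Junb windows, was in 37.4% of all windows. The CRE was in 1.79% of all windows, the AP-1 site in 7.81%, the E-box in 7.15% and the CArG box in 1.63%, and none of these was in the 3 windows shown. Bases more than 250 before the start were not searched, so these promoters may hold such sites further upstream. A match is a description of the letters and was not set against any measurement. The motifs were chosen after the windows had been read, so a match beside its share is not a test.

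The first question was what ascorbic acid and BMP-2 added to GP after 1 day. Klf10 was the only member past the threshold, and it was higher in treated cultures. Its first probe set (suffix at) read 340.4, 274.7 and 213.6 units in treated preps 1, 2 and 3, against 151.0, 131.4 and 114.4 units in GP preps 1, 2 and 3. Its second (suffix g_at) read 304.5, 241.3 and 155.5 units in treated cultures and 94.9, 73.7 and 85.2 units in GP cultures. Every treated value lay above every GP value for both probe sets, and all 3 preps had the increase.

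The log2 differences for Klf10 were 1.05 ± 0.20 (first probe set, SE, adjusted p = 0.0281) and 1.42 ± 0.29 (second probe set, adjusted p = 0.0380), from limma with Benjamini-Hochberg adjustment over 7453 tested probe sets. With the prep number as a block the adjusted p was 0.00330 and 0.00268. Klf10 also stood above the day 0 cultures: treated cells at day 1 had means of 276 ± 63.4 and 234 ± 74.8 units, against 117 ± 17.4 and 76.4 ± 32.3 units in medium (SD, n = 3 each), log2 differences of 1.23 ± 0.20 and 1.64 ± 0.29 (adjusted p = 0.00486 and 0.00804). These calls stayed without any 1 array, and unblocked they were lost without all arrays of prep 1 (0.124 and 0.0979) or prep 2 (0.167 and 0.220), where the blocked fit kept them. GP alone did not separate from medium at day 1, at 0.18 ± 0.20 and 0.22 ± 0.29 (adjusted p = 1.00 for both). A change in the share of cells that express a gene and a change in RNA per cell cannot be told apart in these bulk samples.

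Across members, 2 of 13 tested probe sets passed at day 1, both of Klf10 and both higher, where 0.926% of all probe sets passed. With the block the same 2 passed, where 4.99% of all probe sets did. Both calls were lost without the block when 1 array was left out, whether GP prep 1, 2 or 3 or treated prep 1 or 2 (adjusted p = 0.0638 to 0.189). With the block both stayed past the threshold without any 1 of the 6 arrays (0.00215 to 0.0234), and were lost only without all arrays of prep 1 (0.0579 and 0.0621) or prep 2 (0.123 and 0.119). Unblocked, both were also lost when only the day 1 groups were fitted (0.138 and 0.119), and the second without a signal filter (0.0657) or a mean trend (0.0524).

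**Figure D1:**
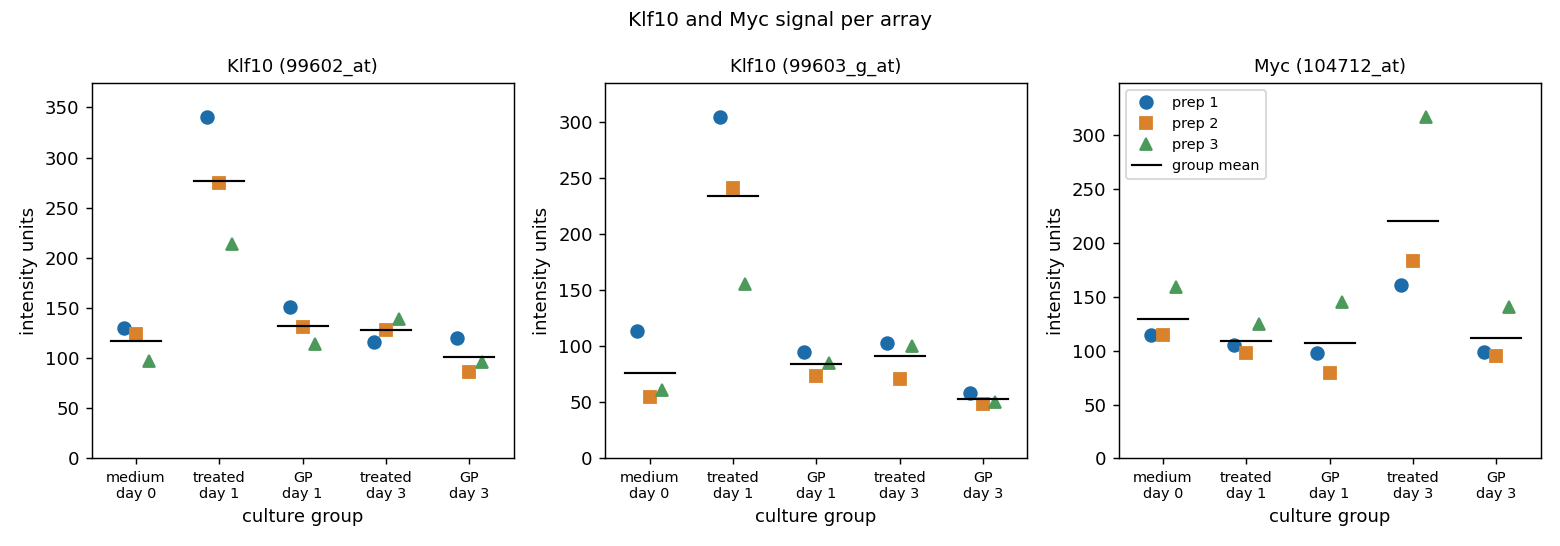
Signal intensity (linear units, vertical axis from 0) of the Klf10 probe sets and of Myc in each of the 15 arrays, by culture group. Symbols mark preps 1 to 3 and bars mark group means. Treated day 1 cultures stand highest for Klf10, at 214 to 340 units for its first probe set, and treated day 3 cultures stand highest for Myc, at 161 to 317 units.

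Klf10 fell in treated cultures between day 1 and day 3 in the fit with the block. The first probe set read 116.0, 128.0 and 138.8 units in treated preps at day 3, below the day 1 values given above without overlap. The log2 difference of treated day 3 from treated day 1 was -1.09 ± 0.20 (adjusted p = 0.0551) for the first and -1.32 ± 0.29 (0.0905) for the second. Neither passed without the block unless arrays were weighted (0.0123 and 0.0364), prep 3 or its treated day 1 array was left out (0.0198 to 0.0489) or, for the first, the signal filter was raised (0.0420), and both passed with the block (0.00299 and 0.00511), with decreases in 3 of 3 preps. Those blocked calls were lost without all arrays of prep 1 (0.111 and 0.0976) or prep 2 (0.115 and 0.167). In GP cultures both probe sets were also lower at day 3 than at day 1 in 3 of 3 preps. Those differences were -0.40 ± 0.20 and -0.68 ± 0.29 and did not pass (adjusted p = 0.835 and 0.709, and 0.324 and 0.168 with the block).

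Against GP at day 3, only the second Klf10 probe set passed, and only with the block. It read 102.7, 70.9 and 99.9 units in treated preps and 58.3, 48.8 and 50.7 units in GP preps, which did not overlap. The difference was 0.78 ± 0.29 (adjusted p = 0.168, and 0.0314 with the block). It was lost under the block on leaving out any 1 of the 6 arrays except treated prep 2 (adjusted p = 0.0524 to 0.145). The first probe set overlapped between the groups, at 116.0 to 138.8 and 85.8 to 120.2 units, and differed by 0.35 ± 0.20 (0.433, and 0.203 with the block). The change in the treatment effect, day 3 minus day 1, was -0.69 ± 0.29 for the first and -0.64 ± 0.41 for the second and did not pass (adjusted p = 1.00 for both, and 0.376 and 0.596 with the block).

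Myc, the growth-promoting partner of Max, had its highest values at day 3. At day 1 its probe set read 104.9, 98 and 124.5 units in treated preps 1, 2 and 3 and 97.8, 79.1 and 145.2 units in GP preps, which overlapped. At day 3 it read 161.1, 183.5 and 317.0 units in treated preps, against 98.4, 95.2 and 140.8 units in GP preps. All treated values lay above all GP values at day 3, and prep 3 was highest in both groups.

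The day 3 difference in Myc was 0.94 ± 0.28 on the log2 scale (adjusted p = 0.0795), 0.71, 0.95 and 1.17 within preps 1, 2 and 3. It passed only when the prep number was a block, with an SE of 0.15 and an adjusted p of 0.00150, or in fits that weighted arrays (0.0236) or left out prep 3 (0.0307). Under the block it also passed without any 1 of the 6 arrays (0.00198 to 0.00968), the GP array with the high actin ratio among them (0.00638), and without any 1 prep (0.0212 to 0.0421). Myc at treated day 3 also exceeded treated day 1 by 0.96 ± 0.28 (0.233, and 0.00371 with the block) and medium day 0, at 115.0, 114.3 and 159.2 units, by 0.72 ± 0.28 (0.228, and 0.00844 with the block). The blocked call against treated day 1 was lost without all arrays of prep 2 (0.115) or prep 3 (0.0628), and that against medium without any 1 prep (0.0517 to 0.108). The day 3 minus day 1 change in the treatment effect was 0.88 ± 0.40 (1.00, and 0.175 with the block).

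At day 3 as a whole, 0 of 13 member probe sets passed in limma without the block, where 4.11% of all probe sets passed. At an unadjusted limma p under 0.05 there were 1245 of all 7453 probe sets and 2 of the 13, the second of Klf10 and that of Myc. With the block 2 passed, the same ones, where 13.8% of all probe sets did, so the share of members called was close to that background. For the change in the treatment effect from day 1 to day 3, 0% of all probe sets passed, also with the block (0%). At an unadjusted p under 0.05 limma had 2 of 13 member probe sets without the block and 3 with it. Over all 7453 probe sets these counts were 270 and 650. Over the 13 member probe sets, with more than 1 each for Junb, Klf10 and Atf3, the median treated minus GP difference was 0.32 at day 1 and 0.66 at day 3. Over all tested probe sets it was -0.004 and -0.0004. These medians were not tested, and that of members at day 3 was the Egr1 value, which had an SE of 0.59.

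**Figure D2:**
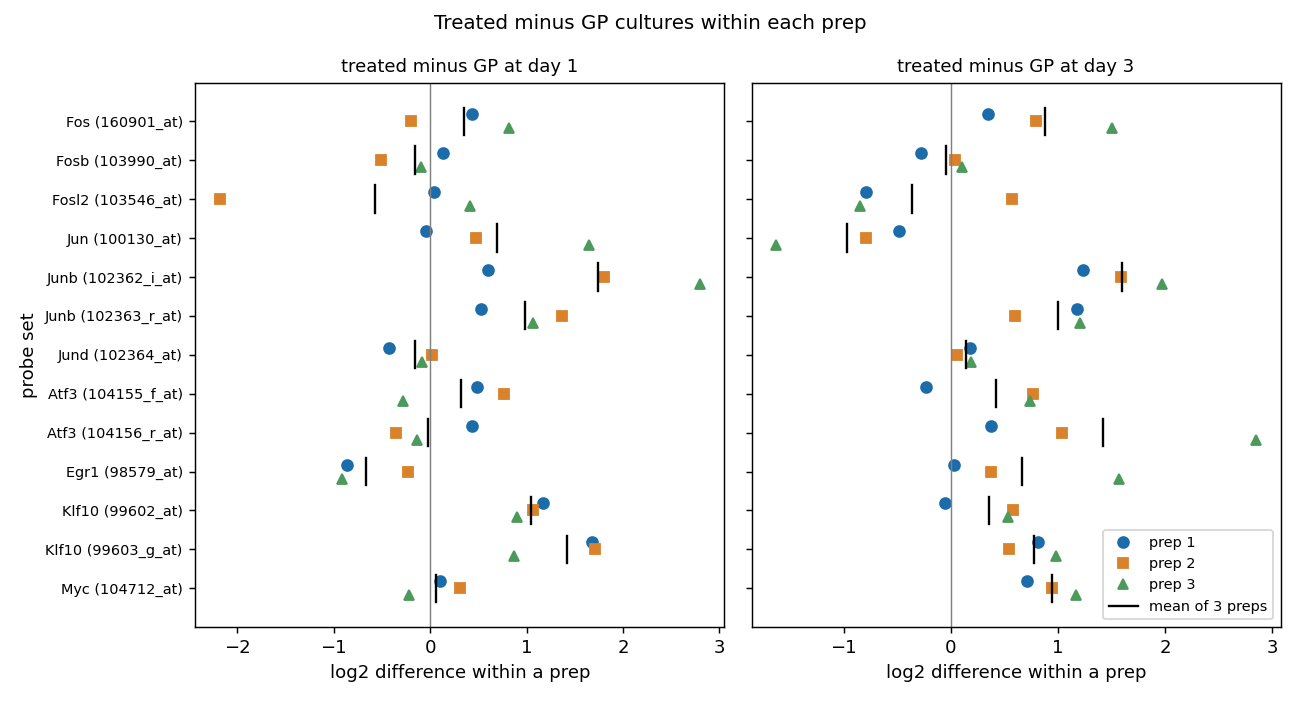
Treated minus GP difference in log2 intensity within each prep, for the 13 tested probe sets of the members, at day 1 (left) and day 3 (right). Symbols are preps and vertical bars are means of 3 preps. Klf10 lies right of 0 in every prep at day 1 and Myc in every prep at day 3, and Jun lies between -0.05 and 1.65 at day 1 and between -1.64 and -0.48 at day 3.

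Of the Jun family, Jun is the most potent partner in AP-1, Junb is often its antagonist and Jund is the member made in resting cells. Jun differed most by prep. In prep 3 it read 18.3 units in medium at day 0, 67.0 in treated and 21.4 in GP cultures at day 1, and 11.1 in treated and 34.5 in GP cultures at day 3. In preps 1 and 2 the same groups read 338.4 and 204.3, 283.7 and 297.2, 293.0 and 214.2, 149.8 and 79.8, and 209.1 and 138.5 units. Every prep 3 value thus lay below every value of preps 1 and 2, and 82.0% of the sum of squares of Jun's log2 values lay between preps, against 13.2% between groups.

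Within preps, Jun was lower in treated cultures at day 3 than at day 1, by -0.92, -1.90 and -2.59 in preps 1, 2 and 3. The log2 difference was -1.80 with an SE of 1.26 without the block (adjusted p = 0.824) and 0.33 with it (0.00927). With the floor raised to the signal filter of 22.3 units, above the lowest prep 3 values, it was -1.47 (0.0168 with the block). This blocked call stayed without any 1 of the 6 arrays (0.00765 to 0.0456) and was lost without all arrays of prep 2 (0.182). Treated day 3 cultures were also below medium day 0 in each prep, by -1.18, -1.36 and -0.72 (adjusted p = 0.811, and 0.0488 with the block), a call that was lost under the block on leaving out treated prep 1, 2 or 3 or medium prep 1 or 2 (0.0605 to 0.204). The prep 3 values of 11.1 and 18.3 units in that comparison both lie under the signal filter, and with the floor raised to the filter the difference was -0.84 and the blocked call was lost (0.0977). Against GP at the same day Jun differed by 0.69 at day 1 and -0.97 at day 3, neither past the threshold (0.942 and 0.788, and 0.268 and 0.0676 with the block). From day 1 to day 3 Jun in GP cultures changed by -0.49, -0.63 and 0.69 in preps 1, 2 and 3. The change in the treatment effect, day 3 minus day 1, was -1.66 ± 1.79 and did not pass (adjusted p = 0.9998, and 0.245 with the block).

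For Junb, treated cultures read higher than GP cultures in every prep, but no difference passed. At day 3 its probe set with suffix r read 294.5, 155.0 and 141.1 units in treated preps 1, 2 and 3, against 129.8, 102.1 and 61.3 units in GP preps, without overlap. At day 1 it read 610.1, 486.3 and 140.3 units in treated preps and 421.8, 189.0 and 66.8 units in GP preps, higher in 3 of 3 preps but with overlap between the groups. The differences of 0.99 ± 0.87 at day 1 and 1.00 ± 0.87 at day 3 did not pass (adjusted p = 0.818 and 0.641), nor did they with the block (0.213 and 0.153). The probe set with suffix i differed by 1.74 ± 1.40 and 1.60 ± 1.40 and did not pass either (0.782 and 0.644, and 0.334 and 0.302 with the block). Between preps lay 57.3% of the squares of the r probe set and 43.2% of those of the i probe set.

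Jund had by far the highest signal of these probe sets, at 1742 to 3601 units on every array, and only 1.34% of other probe sets had a higher mean. It read 2131, 2780 and 1742 units in treated cultures at day 1, against 3601, 3492 and 2085 units in medium at day 0. This difference of -0.45 ± 0.25 did not pass without the block (adjusted p = 0.422) and did with it (0.0138), and prep 1 had the largest decrease, at -0.76. The blocked call was lost without the prep 1 array of treated (0.0784) or of medium (0.0792), and without all arrays of prep 1 (0.226) or prep 2 (0.101). Treated minus GP differences in Jund were -0.16 ± 0.25 at day 1 and 0.14 ± 0.25 at day 3 and did not pass (0.927 and 0.849, and 0.452 and 0.440 with the block).

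**Figure D3:**
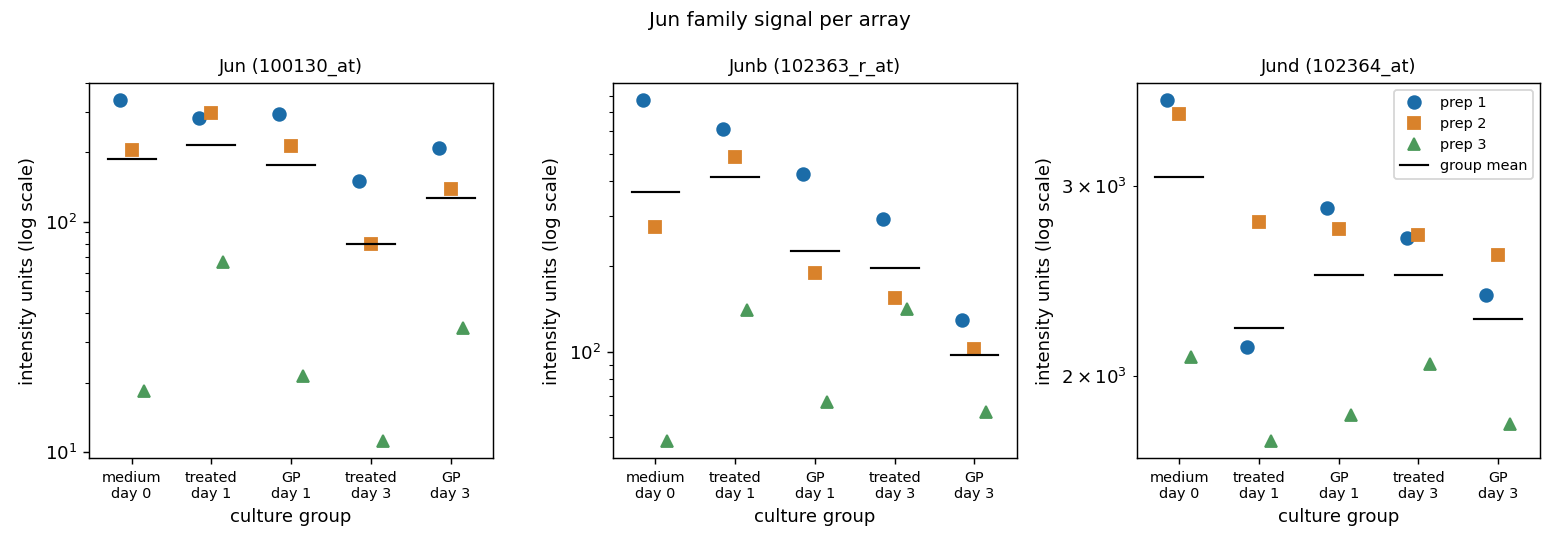
Signal intensity of Jun, Junb (probe set with suffix r) and Jund on each array, on a log scale whose range differs between panels. Symbols are preps and bars are group means. The prep 3 arrays lie lowest for Jun in every group, at 11.1 to 67.0 units against 79.8 to 338.4 units in preps 1 and 2.

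The difference between prep 3 and preps 1 and 2 was tested after these values were seen, with a term for each group. This fit set 1 prep against 2 and counted the arrays of a prep as independent. Its standard errors and p-values thus do not measure how far preps in general differ. Of 13 member probe sets 6 passed, 5 lower and 1 higher in prep 3, where 37.1% of all tested probe sets passed, so members were called at a rate close to the background. Jun averaged 30.5 units in prep 3 and 221 units in preps 1 and 2, a log2 difference of -3.02 ± 0.25 (adjusted p = 1.59e-06). The other lower probe sets were both of Junb (-2.19 ± 0.73 and -1.76 ± 0.34), Jund (-0.54 ± 0.07) and the Atf3 probe set with suffix r (-1.30 ± 0.31), with adjusted p of 0.0291, 0.00133, 0.000111 and 0.00540. Myc was higher in prep 3, at 177 against 115 units, by 0.58 ± 0.10 (0.000638). Prep 3 also had the higher share of values at the floor given above, and the part of that in these differences was not tested.

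Egr1 and Fos, which respond to serum and growth factors through shared upstream kinases, had their highest signals on the same arrays. In medium at day 0, Egr1 read 731.4 units in prep 1, 182.0 in prep 2 and 81.5 in prep 3, and Fos read 300.9, 54.1 and 22.3 units. The next highest array for both was treated day 3 of prep 3, with 419.5 units for Egr1 and 111.0 for Fos. The remaining 13 arrays lay at 40.2 to 188.6 units for Egr1 and 14 to 64.7 units for Fos.

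Egr1, by the probe set that passed the signal filter, was lower in treated cultures at day 1 than in medium at day 0. Treated cultures at day 1 read 66.5, 79.5 and 40.2 units, all below the day 0 values. The log2 difference was -1.89 ± 0.59 (adjusted p = 0.103, and 0.0391 with the block), and it was -3.46 in prep 1 and -1.19 and -1.02 in preps 2 and 3. Without the prep 1 medium array it was -1.04 under the block (0.175), and the blocked call was also lost without the medium prep 2 array or any 1 of the 3 treated arrays (0.0590 to 0.130). It passed without the medium prep 3 array, with and without the block (0.00968 and 0.0247), and unblocked with array weights (0.0309) or without prep 3 (0.0289).

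Against GP, Egr1 was lower in all 3 treated preps at day 1 and higher in all 3 at day 3. GP cultures read 120.5, 93.0 and 75.5 units at day 1, against the treated values just given. At day 3 Egr1 read 165.0, 188.6 and 419.5 units in treated preps and 161.5, 145.3 and 140.9 units in GP preps, which did not overlap. The differences were -0.66 ± 0.59 at day 1 and 0.66 ± 0.59 at day 3, and neither passed (adjusted p = 0.820 and 0.652, and 0.578 and 0.486 with the block). Without prep 3 the blocked day 3 difference was 0.20. Treated day 3 exceeded treated day 1 by 1.98 ± 0.59 without overlap (0.237, and 0.0649 with the block). A second Egr1 probe set read at most 20.9 units, failed the signal filter, and had lower values in treated than in GP cultures at day 3 (1.2 to 3.5 and 6.8 to 14.5 units), the other way from the first. Its treated day 1 values (10.3 to 13.9 units) lay above medium day 0 (1.1 to 10.1 units) and above treated day 3, also the other way from the first.

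Fos at day 3 read 45.3, 64.7 and 111.0 units in treated preps 1, 2 and 3, against 35.6, 37.2 and 39.2 units in GP preps, without overlap. The log2 difference of 0.88 ± 0.72 did not pass (adjusted p = 0.610, and 0.440 with the block). At day 1 Fos read 43.5, 41.0 and 24.6 units in treated preps and 32.1, 47.2 and 14 units in GP preps, which overlapped, a difference of 0.35 ± 0.72 (0.952). Treated day 3 exceeded treated day 1 by 0.96 ± 0.72 (0.841, and 0.528 with the block). Its second probe set stayed at 1.2 to 22.5 units and failed the signal filter.

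**Figure D4:**
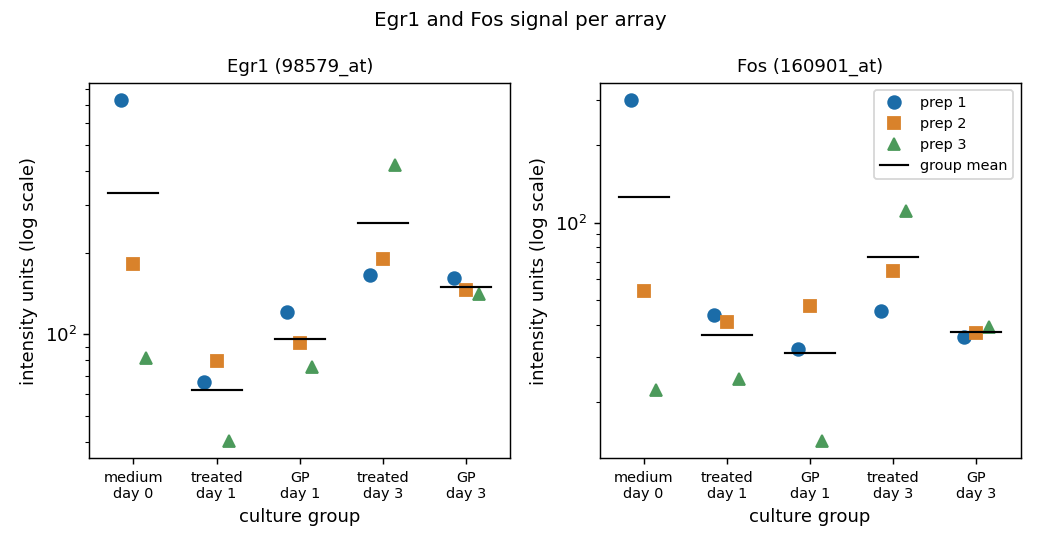
Signal intensity of Egr1 and Fos on each array, on a log scale. Symbols are preps and bars are group means. The prep 1 array of medium day 0 is highest for both genes (731.4 and 300.9 units), and treated day 3 of prep 3 is next (419.5 and 111.0 units).

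Fosb and Fosl2 are Fos relatives, of which Fosl2 is known in bone for its role in osteoblast and matrix gene expression. Fosb varied little, between 70.6 and 132.0 units on all arrays. Its day 0 values of 132.0, 109.4 and 105.1 units lay above those of treated cultures at day 3 (70.6, 94.2 and 87.1), GP cultures at day 1 (97.8, 102.7 and 85.5) and GP cultures at day 3 (85.9, 91.6 and 81.1). The log2 differences from day 0 were -0.46, -0.27 and -0.42, each with an SE of 0.19, and none passed (adjusted p = 0.251, 1.00 and 1.00, and 0.130, 0.801 and 0.455 with the block). Fosl2 lay close to the signal filter, at 12.8 to 77.3 units, and its treated and GP ranges overlapped at day 1 (17.0 to 57.8 and 33.2 to 77.3 units) and at day 3 (19.0 to 36.3 and 12.8 to 63.0 units). Treated minus GP differences were -0.58 ± 0.59 and -0.36 ± 0.59 (0.854 and 0.836, and 0.611 and 0.715 with the block).

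Atf3 also gave low signal, and its probe sets did not rank the arrays alike. At day 3 the probe set with suffix f read 35.8, 61.0 and 55.0 units in treated preps and 42.0, 35.9 and 33.0 units in GP preps. It stood above the day 0 values of 23.5, 35.3 and 29.2 units in treated cultures at day 3 without overlap, a difference of 0.77 ± 0.33 (adjusted p = 0.277, or 0.182 with the block). The one with suffix r read 67.0, 65.4 and 38.3 units in treated preps at day 3, against 51.8, 31.9 and 5.3 units in GP preps, a difference of 1.42 ± 0.70 (0.333, and 0.0677 with the block) that was 0.37, 1.04 and 2.85 within preps. The GP value of 5.3 units came from the array with the actin ratio of 2.11. Another Atf3 probe set read 1.4 to 3.4 units throughout and failed the signal filter.

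The remaining comparisons followed time and medium. For GP day 1 against medium day 0, 0 members passed without the block or with it (0 and 2 at an unadjusted p under 0.05 in limma), where 0.242% and 0.725% of all probe sets did. For GP day 3 against GP day 1 the member count was also 0 in each fit (1 and 2 unadjusted), beside 0.711% and 1.85% of all probe sets, although the second Klf10 probe set was lower without overlap, at -0.68 ± 0.29 (adjusted p = 0.709, and 0.168 with the block), and Egr1 higher without overlap, at 0.66 ± 0.59 (0.998, and 0.687 with the block). For GP day 3 against medium day 0, 0 passed (1 and 3 unadjusted), beside 0% and 0.0134%. Over all 7453 probe sets the unadjusted counts were, in the same order, 258 and 568, 479 and 1000, and 312 and 737.

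In treated cultures, day 3 against day 1 called 0 members without the block (4 unadjusted) and 4 with it, Jun and both Klf10 probe sets lower and Myc higher, where 0.148% and 3.84% of all probe sets were called. Treated day 1 against medium called 2 and 4, Klf10 higher in each fit and, with the block, Egr1 and Jund lower, beside 3.98% and 12%. Treated day 3 against medium called 0 (3 unadjusted) and 2, Myc higher and Jun lower with the block, beside 2.62% and 11.7%. Without the block 618 of all 7453 probe sets had an unadjusted limma p under 0.05 for treated day 3 against day 1. For treated day 3 against medium 1124 did. These comparisons share arrays with one another, so their calls are not independent.

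Partners and targets of these factors were described from lists. For treated minus GP, 0.926% of all probe sets passed at day 1 and 4.11% at day 3, and 4.99% and 13.8% with the block. Of 18 other AP-1 and ATF/CREB family genes tested, 0 passed at day 1 (0 higher and 1 lower with the block) and Nfe2l1, a stress-responsive bZIP factor, fell at day 3 by 0.62 ± 0.15 (526 ± 29.4 against 816 ± 139 units, adjusted p = 0.0337). The list medians for treated minus GP were -0.10 and -0.15. Among 18 upstream MAP kinase, serum response factor and ternary complex genes 0 passed at either day (0 and 1 with the block), with medians of -0.03 and -0.01. Of 7 Myc partners and antagonists tested, 0 passed at either day (0 and 1 with the block), with medians of 0.03 and 0.06. Mxd3, a Myc antagonist of the Mad family, rose in treated day 1 against medium, at 174 ± 44.4 and 63.2 ± 4.76 units, by 1.43 ± 0.36 (0.0408).

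Genes known as Myc targets had calls in 1 direction at both days. Of 25 tested, 3 rose and 0 fell at day 1 and 5 rose and 0 fell at day 3, or 5 and 11 higher with the block. Over all probe sets 0.926% and 4.11% passed at these days, and 4.99% and 13.8% with the block. Srm, spermidine synthase, had 404 ± 29.96 units in treated and 161 ± 3.84 units in GP cultures at day 1, a difference of 1.32 ± 0.21 (adjusted p = 0.0107), and 1.18 ± 0.21 at day 3 (0.00728). Nhp2, of the ribonucleoproteins that modify ribosomal RNA, rose by 1.06 ± 0.18 and 1.04 ± 0.18 (0.0166 and 0.00700), and Apex1, a DNA repair endonuclease, by 0.71 ± 0.15 and 0.79 ± 0.15 (0.0396 and 0.00964). The nucleolar GTPase gene Gnl3 rose at day 3, by 0.72 ± 0.16 (0.0235). The list medians were 0.40 and 0.49, and at day 1 Myc itself differed by 0.06 ± 0.28 (0.989).

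With the block, the calls among genes known as AP-1 targets were all lower at day 1 and went both ways at day 3. Of 16 tested, 0 passed at day 1 (0 higher and 4 lower with the block), and at day 3 Tgfb1, the growth factor gene, rose by 2.36 ± 0.33 (adjusted p = 0.00146), while 2 were higher and 4 lower with the block. Over all probe sets 0.926% and 4.11% passed at these days, and 4.99% and 13.8% with the block. The list medians were -0.07 and -0.23. Against medium, treated day 1 cultures had lower Ezr, a membrane to actin linker (142 ± 26.5 and 316 ± 81.9 units, -1.14 ± 0.26, 0.0251), and lower Ccnd1, cyclin D1 (430 ± 155 and 791 ± 121 units, -0.93 ± 0.24, 0.0470).

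Other immediate early and serum response genes were mixed. Of 34 tested, Gadd45b rose at day 1 by 1.41 ± 0.25 (adjusted p = 0.0166), and at day 3 Gadd45g, Ccn2 and Gadd45b rose by 2.13 ± 0.42, 3.09 ± 0.64 and 0.98 ± 0.25 (0.0129, 0.0157 and 0.0440). Zfp36l2, an RNA-binding protein that promotes mRNA decay, fell at day 3 by 0.77 ± 0.20 (0.0489) and in treated day 1 against medium by 1.22 ± 0.20 (0.00486). With the block 3 were higher and 1 lower at day 1, and 4 and 4 at day 3, and the medians were -0.04 and 0.07. Over all probe sets 0.926% and 4.11% passed at these days, and 4.99% and 13.8% with the block. In the TGF-beta and BMP target list, 1 of 13 rose at day 1 and 4 at day 3 (4 and 5 with the block), with 0 lower. This list did not hold Klf10 or any other member, and Ccn2 was counted both in it and in the list above. Its medians were 1.11 and 0.33, where the shares over all probe sets were again 0.926% and 4.11% (4.99% and 13.8% with the block). Smad7, a feedback inhibitor, was among 4 of that list that rose in treated day 1 against medium, by 1.44 ± 0.26 (0.00830). Of 12 heat shock genes, a sign of handling stress, 0 passed at either day (0 higher and 1 lower with the block at day 1, 1 and 3 at day 3), with medians of -0.12 and -0.10.

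The genes most like Klf10 over the 15 arrays were found by Pearson correlation of log2 intensity among probe sets with a single symbol. For its first probe set they were Gclm, Nup93 and Wwp2 (r = 0.89, 0.88 and 0.88, n = 15 arrays). For the second they were Dnajc2, Cux1 and Pak1ip1 (r = 0.93, 0.90 and 0.89, n = 15 arrays). After prep means were subtracted r was 0.91, 0.88 and 0.90, and 0.92, 0.90 and 0.90. These arrays share preps and groups, so r is a description, and the other members had no call without the block and were not set against other genes.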

How the data were processed

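Linear signal intensities per probe set, deposited by the authors as 1 table of 12488 probe sets and 15 arrays, were used. No source used here names the software behind the intensity values. The trimmed mean (2nd to 98th percentile) was 150.1 for all 15, which shows scaling before deposit.

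The 66 control probe sets were left out. Values under 2.8, the 10th percentile, were set to 2.8, log2 was taken, and probe sets with a mean log2 value under the 40th percentile (22.3 units) were left out, which left 7453. Of 12422 probe sets, 10833 had 1 gene symbol, 396 several and 1193 none in the platform annotation. Suffixes f, g, i and r mark probe sets whose probes may be shared with similar transcripts or were chosen under relaxed rules, so other signal was not excluded.

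All 15 arrays entered 1 limma 3.58.1 fit in R 4.3.3 (lmFit, eBayes with a mean trend) with a term per group, tested on simulated data, with Benjamini-Hochberg adjustment over all tested probe sets at 0.05. Errors of differences are standard errors, those of means are SDs, and the number of arrays limits the precision.

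Prep numbers pair the arrays: deviations from group means correlated over 0.1 in 30 of 30 pairs of the same number (0.19 to 0.70). Of 60 pairs of different numbers (-0.57 to 0.26), 19 did. Pairs of prep 3 with another prep were all negative. Pairs of prep 1 with prep 2 lay at 0.10 to 0.26 and overlapped those within prep 2 (0.19 to 0.37), so the contrast is largely one of prep 3. Values with the prep number as a block stand beside the unblocked ones. A fit with a replicate block has 8 residual degrees of freedom, against 10 without.

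A log2 difference was given for a member that passed in either fit or whose groups did not overlap, with others added to complete a description. Of other lists, up to 4 genes per comparison that passed were eligible. Members and lists were chosen with earlier results of these data known. Promoter windows came from RefSeq (GRCm38.p6), and the motifs were chosen after the windows had been read. Alternatives were other floors, filters, scalings, variance models and sample sets.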

Additional observations from a re-analysis of the deposited data

Results flagged for a closer look

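Egr1 was flagged because the sign of its treated minus GP difference was negative in every prep at day 1 and positive in every prep at day 3. In log2 intensity it was -0.86, -0.23 and -0.91 in preps 1, 2 and 3 at day 1 and 0.03, 0.38 and 1.57 at day 3. Prep 1 thus hardly differed at day 3. The change in the treatment effect, day 3 minus day 1, was 1.32 ± 0.83 and did not pass (limma adjusted p = 1.00, and 0.707 with the block). For the second Egr1 probe set, which failed the signal filter and was not tested, that change was -2.40.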

How the results depend on the processing

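The number of member probe sets past the threshold was recomputed under each alternative. At day 1, treated against GP, it was 2, with 1 under no signal filter, 1 without a mean trend, 0 when only these groups were fitted and 0 to 2 when an array or prep was left out. At day 3 it was 0, with 2 under the replicate block, 1 with array weights, 2 with the block and the floor at the signal filter, and 0 to 2 over the fits that left out arrays or preps. For treated day 3 against day 1 it was 0, with 4 under the block, 1 with the filter at the 60th percentile, 2 with array weights, 4 with the block and raised floor, and 0 to 5 with arrays or preps left out. For treated day 1 against medium it was 2, with 4 under the block, 1 in a fit of only those groups, 3 with array weights, 4 with the block and raised floor, and 0 to 4 with arrays or preps left out. For treated day 3 against medium it was 0, with 2 under the block, 1 with the block and raised floor, where Jun lost its call, and 0 to 3 with arrays or preps left out. For GP day 3 against GP day 1 and against medium it was 0, and 0 to 2 with arrays or preps left out. For GP day 1 against medium and the change in the treatment effect it was 0 in every fit run. Fits with the block and raised floor, and with the block and arrays or preps left out, were added after the data were seen. Among single members, Jun in treated day 3 against medium ranged from -2.37 without the prep 3 array of medium to 0.02 (0.0156) without that of treated day 3 (adjusted p = 0.998), since the low prep 3 array of medium was then unmatched, in the second case, in a fit without the block. The direction of every other member difference recomputed stayed the same. No detection calls were used, so how far low signals lie above background is unknown.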
